A study of Sus scrofa with 96 samples.

Results

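The transcripts described here are the 200 most abundant synovium-restricted transcripts of the Yucatan minipig knee, chosen from unoperated control joints. Levels were expressed as CPM, the estimated count of a transcript scaled to the same total in every library. A transcript of more than 300 bases was taken as restricted to synovium when log2 of its mean CPM in control cartilage plus 1 over its mean CPM in control synovium plus 1 was -4 or less. Of the 46295 transcripts quantified, 524 met this limit, and the 200 with the highest mean CPM in control synovium are described. They are numbered by that level, so rank 1 is the most abundant. The ratio of the member nearest the limit was -4.03, and that of the nearest transcript outside it was -3.99. Mean CPM in control synovium was 2435 at rank 1 and 75.7 at rank 200, and the next eligible transcript was at 75.6.

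RNA was sequenced from the articular cartilage of the medial femoral condyle and from the synovium attached to the medial meniscus of adolescent Yucatan minipigs, 52 weeks after unilateral transection of the anterior cruciate ligament. The ligament was left untreated (ACLT), reconstructed (RECON), or repaired with an extracellular matrix scaffold (REPAIR). Controls (CON) were the contralateral, unoperated knees of animals from those same treatment groups, so every animal had undergone surgery on a knee, and no knee of an animal without surgery was included. Each tissue had 12 CON, 11 ACLT, 12 RECON and 12 REPAIR libraries, and total counts ran from 7483049 to 19992966 in synovium and from 9043812 to 21937198 in cartilage. The ACLT 12 libraries, whose knee is not in the study's sample list, were left out, and members made up 4.82% of its synovium and 0.124% of its cartilage library, both inside the range of the other ACLT libraries.

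Synovium lines the joint capsule with a thin layer of fibroblasts and macrophages, which secrete hyaluronan and lubricin into the joint fluid, over a sublining that carries blood vessels, nerves, fat and resident immune cells. Healthy articular cartilage has no blood vessels and holds chondrocytes embedded in a collagen and proteoglycan matrix. Transcripts of vascular, immune, fat and fibroblast cells are therefore common among those found in synovium and scarce in cartilage. The deposited tables give Ensembl transcript identifiers without gene names, and no table used here pairs them, so the members could not be assigned to genes or cell types and the labelled tissues could not be checked against marker genes. In whole tissue, fewer cells of a type and less RNA per cell cannot be told apart.

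The libraries labelled CON 11 and REPAIR 7 in synovium stood apart from their groups, in opposite directions. Transcripts that differed between operated and CON synovium were called without them, 6249 in all (edgeR, adjusted p-value under 0.05), and each library was then set against the medians of the remaining CON and operated libraries. CON 11 lay nearer the operated median for 77.6% of these transcripts, against 10.2% to 48.6% in the other 11 CON libraries. REPAIR 7 did so for 32.5%, against 47.7% to 87.6% in the other 34 operated libraries. Over the members among them the values were 79.4% for CON 11 (2.94% to 37.3% in the other CON libraries) and 15.7% for REPAIR 7 (47.1% to 98.0% in the other operated libraries). The other libraries took part in the calls and the medians, and CON 11 and REPAIR 7 did not. The labels were kept and the cause was not tested. Several results that rest on these libraries are also given without both. The TPM values, the ratios between the tissues and the fits with a covariate or a block are given only with them. Chosen without CON 11 in synovium, the list would have kept 197 of its 200 members.

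The 200 transcripts took up less of the synovium in operated than in CON knees. Their summed share of the library count was 5.27% in the lowest, 6.06% in the median and 7.11% in the highest CON synovium. It was 4.05%, 5.10% and 5.51% in ACLT, 3.82%, 4.62% and 5.36% in RECON, and 4.52%, 5.14% and 5.72% in REPAIR. The groups overlapped at their edges, but 26 of the 35 operated synovia lay below the lowest CON library, among them 11 of the 12 RECON libraries, 8 of the 11 ACLT libraries and 7 of the 12 REPAIR libraries. Without the libraries of CON 11 and REPAIR 7, it was 26 of 34. High levels in these same CON libraries chose the transcripts, so every comparison with CON is given as a description and no support is drawn from it. The share was spread over many members, and the 10 most abundant held 29.1% of the members' summed CPM in the operated synovia. Beside the members, the 324 eligible transcripts of lower abundance held a median of 1.29% of the CON and 1.03% of the operated synovium libraries.

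**Figure D1:**
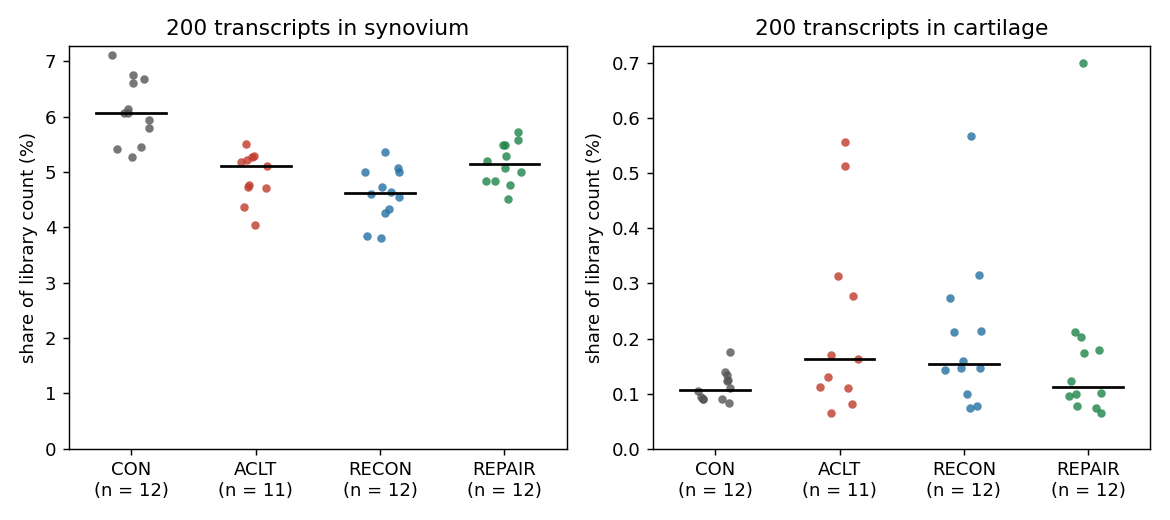
Share of each library's count held by the 200 synovium-restricted transcripts, in percent, in synovium (left) and cartilage (right), with 1 point per library and a line at the group median. Of the 35 operated synovia 26 lie below the lowest CON library, and 4 cartilage libraries lie between 0.512% and 0.700%, above all others.

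Abundance per base gave another order than CPM, since the members ran from 383 to 15775 bases with a median of 3637.5. On the TPM scale, which divides by length, the member of rank 4 was the highest in CON synovium at 7518 ± 2453 (SD, n = 12) and was at 3281 ± 1066 (SD, n = 35) in operated synovium. The member of rank 15 was at 3411 ± 309 TPM in CON and 3313 ± 555 in operated synovium, and that of rank 3 at 2538 ± 363 and 2399 ± 424. The member of rank 1 by CPM was 10th by TPM in CON synovium, at 1355 ± 369, and 16th in operated synovium, at 727 ± 226. Some of the most abundant members thus had lower means in operated knees by more than their standard deviations, and others had nearly equal means.

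Restriction to synovium was tested in the operated knees, whose libraries had no part in the choice. Of the 200 members, 177 had enough counts in cartilage alone to pass the filter on low counts. The other 23 entered this comparison only through their counts in synovium, where they are high, so a difference was bound to be found for them and their values are a description. All 177 were called higher in operated synovium than in operated cartilage (edgeR quasi-likelihood test with Benjamini-Hochberg adjustment over all transcripts tested, adjusted p-value under 0.05), where 65.9% of all transcripts tested differed and 32.8% were higher in synovium, and the other 23 were called higher as well. The log2 difference between the tissues was at least 2.08 in each of the 177 and at least 2.24 in each of the 23. For 147 members the lowest operated synovium library exceeded the highest operated cartilage library, which 5.30% of all transcripts tested did. Of these, 135 were among the 177 and 12 among the 23, and 53 members overlapped between the tissues in at least 1 pair of libraries.

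The gap was narrower than the choice had required for part of the members. The log2 ratio of cartilage over synovium had a median of -5.69 in CON, and it was -4.36 in ACLT, -4.32 in RECON and -4.88 in REPAIR. A ratio of -4 or less was found for 124 members in ACLT, 118 in RECON and 163 in REPAIR, against 0.877%, 0.811% and 1.21% of all transcripts tested. With the 35 operated knees pooled it was found for 134 members, against 0.913% of all transcripts. In all 3 operated groups 106 members met it, 25 met it in 2 groups, 37 in 1 group and 32 in none. Low CON ratios chose the members, so less extreme ratios in other libraries can follow from the choice alone, most often near the limit. The means also include the operated cartilage libraries with the highest shares, described further on, and these values are a description. The members nearest the limit in CON were those that most often missed it. Of the 71 members with a CON ratio above -5, 12 kept a ratio of -4 or less in the 3 groups, and of the 36 members at -7 or less, 35 did.

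In synovium, 17 members were higher and 80 were lower in operated than in CON knees, and 103 did not pass the threshold (edgeR, adjusted p-value under 0.05, with the mean of the 3 operated groups set against CON). Of all 27861 transcripts tested 19.0% were called, 9.21% higher and 9.75% lower. The median log2 change was -0.40 over the members and -0.02 over all transcripts. The changes of called members ran from 0.32 to 1.89 for those that rose and from -3.99 to -0.29 for those that fell, and 8 rose and 19 fell by over 2-fold. Falls were spread over the list, with 25 among ranks 1 to 50, 18 among ranks 51 to 100, 20 among the next 50 ranks and 17 among the last 50. When the 94 libraries of both tissues were fitted together, 4 members were higher and 26 lower, and the median was -0.39. With RNA integrity as a covariate 18 were higher and 61 lower, and the median was -0.28. The paper reports lower mean RNA integrity and a lower mean percentage of uniquely mapped reads in surgical than in control synovium. With the animal as a block, in the 12 animals with both knees, 14 were higher and 85 lower and the median was -0.59. The share of all transcripts called is not given for the joint fit, the RNA integrity fit or the animal block. The share past 2-fold is not given either, so these counts are a description of the members only. Without the libraries of CON 11 and REPAIR 7, 21 were higher and 81 lower, with a median of -0.40, and 22.6% of all transcripts tested were called.

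**Figure D2:**
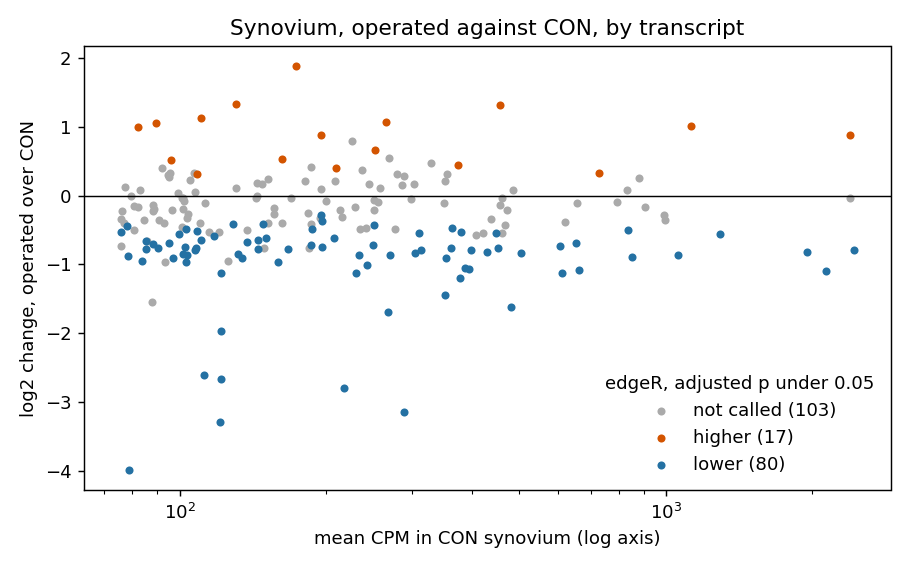
Log2 change of each of the 200 transcripts in operated over CON synovium (vertical axis) against its mean CPM in CON synovium (horizontal log axis), coloured by the edgeR call. The 80 transcripts called lower are found at all abundances, and the 17 called higher include ranks 2 and 7.

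The member of rank 1, of 3842 bases, was among those that fell. Its lowest, median and highest CPM were 1133, 2404 and 3204 in CON, 757, 1479 and 1673 in ACLT, 705, 995 and 1733 in RECON, and 818, 1303 and 2634 in REPAIR. The lowest CON library was CON 11 and the highest operated library REPAIR 7, at 2634, and without these the 34 operated libraries (705 to 1740) lay below the other 11 CON libraries (1845 to 3204). The log2 change over all libraries was -0.79 ± 0.11 (SE, edgeR adjusted p = 4.66e-06). The member of rank 2, of 6369 bases, rose. It was at 1503, 2272 and 4224 CPM in CON, 2465, 3694 and 6677 in ACLT, 2636, 4257 and 6833 in RECON, and 1683, 3388 and 6001 in REPAIR. The highest CON value was that of CON 11, and without it and REPAIR 7 the CON libraries ended at 2821, with 28 of the 34 operated libraries above. Every operated group had its median above the CON median, with a log2 change of 0.88 ± 0.20 (SE, edgeR adjusted p = 0.00134).

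Among the other most abundant members, rank 4, of 818 bases, fell. It was at 1154, 2152 and 3223 CPM in CON, 543, 963 and 1107 in ACLT, 480, 723 and 1439 in RECON, and 459, 1055 and 1575 in REPAIR. The whole ACLT range lay below the lowest CON library, and RECON and REPAIR overlapped it at their upper ends, with a log2 change of -1.10 ± 0.15 (SE, edgeR adjusted p = 1.74e-06). Rank 3, of 3142 bases, was at medians of 2290 CPM in CON, 2022 in ACLT, 1896 in RECON and 2113 in REPAIR, and its log2 difference was -0.03 ± 0.11 (SE), which did not pass the threshold.

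The 8 members that rose by over 2-fold belonged to few of the sets of correlated members described further on. They were ranks 7 and 187 in set 6, ranks 66, 140 and 175 in set 3, ranks 31 and 127 in set 1, and rank 103. Of the 19 that fell by over 2-fold, 6 were in set 2, 5 in set 5 and 5 in set 1. Rank 31, of 1885 bases, stood apart from most of set 1, with medians of 437 CPM in CON (75.3 to 1058), 844 in ACLT (194 to 1893), 1071 in RECON (98.2 to 3008) and 815 in REPAIR (163 to 2264). It varied more than 10-fold within CON and within RECON, and all groups overlapped.

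Among the members that rose, ENSSSCT00000007206.4 had the largest change. This transcript of 517 bases is the member of rank 103. It ran from 83.2 to 470 CPM with a median of 149 in CON synovium, from 152 to 946 with a median of 420 in ACLT, from 299 to 1734 with a median of 759 in RECON, and from 123 to 1089 with a median of 506 in REPAIR. The RECON and REPAIR medians lay above all 12 CON libraries and the ACLT median below the highest of them, which was CON 11. The lowest operated library was REPAIR 7. Without both, 28 of the 34 operated libraries lay above the other 11 CON libraries, which ended at 308. The log2 change was 1.89 ± 0.32 (SE, edgeR adjusted p = 4.79e-05). In cartilage its CPM ran from 3.40 to 9.81 in CON, from 2.03 to 70.9 in ACLT, from 5.21 to 226 in RECON and from 4.24 to 64.9 in REPAIR, a log2 change of 2.36 ± 0.47 (SE, edgeR adjusted p = 0.0121). With rank 69 it was 1 of 2 members called higher in both tissues. Both cartilage calls were lost with the animal as a block, where rank 103 had a log2 change of 1.71 ± 0.54 (SE) and an edgeR adjusted p of 0.394, and rank 69 an adjusted p of 0.130.

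ENSSSCT00000004480.5, of 6103 bases and rank 187, also rose in synovium. It ran from 44.4 to 117 CPM in CON with a median of 78.8, and the medians were 138 in ACLT, 170 in RECON and 127 in REPAIR. The lowest ACLT library, at 59.9, was inside the CON range, as were the lowest RECON and REPAIR libraries at 93.97 and 92.16. The highest CON value was that of CON 11. Without it and REPAIR 7 the CON libraries ended at 110 CPM, with 26 of the 34 operated libraries above. The log2 change was 1.00 ± 0.17 (SE, edgeR adjusted p = 4.79e-05), and the adjusted p was 0.0831 when both tissues were fitted together.

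ENSSSCT00000094781.1, of 1968 bases and rank 132, fell. It ran from 16.9 to 220 CPM with a median of 118 in CON synovium. The ACLT range was 2.38 to 20.4 with a median of 14.4, the RECON range 5.86 to 19.0 with a median of 13.9, and the REPAIR range 6.38 to 134 with a median of 13.9. ACLT and RECON libraries were low throughout and overlapped only the lowest CON library, which was CON 11, and the highest operated value was that of REPAIR 7. Without both, the CON libraries began at 59.9 CPM and 33 of the 34 operated libraries lay below them, the other being a REPAIR library at 103. The log2 change was -2.66 ± 0.29 (SE, edgeR adjusted p = 3.03e-07).

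ENSSSCT00000062204.3, of 2897 bases and rank 26, fell from a CON median of 483 CPM (178 to 773) to medians of 140 in ACLT (81.9 to 263), 119 in RECON (56.6 to 180) and 128 in REPAIR (28.01 to 363). The lowest CON library was again CON 11 and the highest operated library REPAIR 7. Without both, the operated libraries reached 271 CPM and the CON libraries began at 356. The log2 change was -1.62 ± 0.19 (SE, edgeR adjusted p = 3.61e-07).

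**Figure D3:**
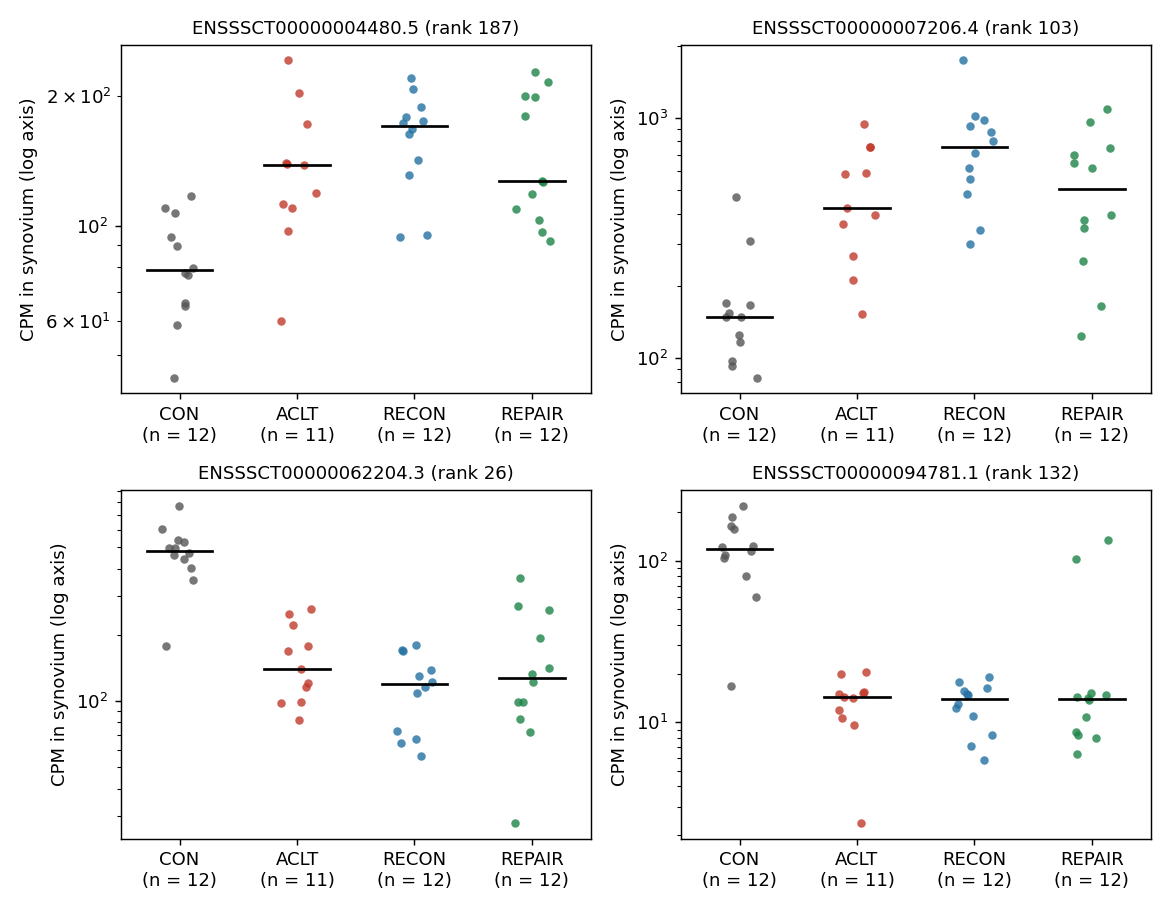
CPM of the 4 named transcripts in each synovium library on log axes, with 1 point per library and a line at the group median. Transcripts of ranks 103 and 187 have higher operated than CON medians, those of ranks 26 and 132 lower ones, and the REPAIR library at 134 CPM of rank 132 and the CON library at 16.9 CPM are REPAIR 7 and CON 11.

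Contrasts between the operated groups left out the CON libraries that chose the members, though these libraries were part of the same fit. In synovium, no member and no other transcript was called between RECON and ACLT, between REPAIR and ACLT or between REPAIR and RECON (edgeR, 0.00% of 27861 transcripts each). At an unadjusted p under 0.05 there were 19 members and 981 transcripts for RECON against ACLT, 7 and 607 for REPAIR against ACLT, and 55 and 1405 for REPAIR against RECON. DESeq2 called 0, 0 and 2 members, and 13, 12 and 5 transcripts. The median log2 difference of the members was -0.16 for RECON against ACLT, 0.11 for REPAIR against ACLT and 0.29 for REPAIR against RECON, with a median standard error of 0.23, 0.23 and 0.22 for a single member.

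By the median share of the library, the members were ordered RECON, ACLT and REPAIR in synovium, though without REPAIR 7 the REPAIR median was 5.08%, just under that of ACLT, and neighbours in that order did not differ by the adjusted test in any member. In REPAIR against RECON, 157 of the 200 members had a positive difference, as did 50.2% of all transcripts tested. The members past an unadjusted p under 0.05 were 27.5% of the list, 51 of them higher in REPAIR and 4 lower, and 5.04% of all transcripts passed. The lowest adjusted p of a member was 0.400. Without CON 11 and REPAIR 7, 44 were higher and 3 lower at an unadjusted p under 0.05, against 4.28% of all transcripts, the median difference was 0.24 and none was called. These members share libraries and are not independent, and no p is given for their count.

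The 2 members called by DESeq2 between REPAIR and RECON, ranks 59 and 138, were high in few libraries. Rank 59 had a median of 1.71 CPM in REPAIR and 0.811 in RECON. It reached 1410 in REPAIR 5 and 291 in REPAIR 7, against a highest RECON value of 34.5. Rank 138 had medians of 6.04 and 4.45 CPM and reached 450 in REPAIR 5 and 93.4 in REPAIR 7, against 17.1. The medians of the groups were close, and the difference lay in 2 libraries, of which REPAIR 7 stood apart from its group. DESeq2 was not run without REPAIR 7.

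Some of the members varied together across the operated synovia, and others varied in opposite directions. Correlations of log2(CPM + 1) were taken between all pairs of members over the 35 operated synovium libraries after the mean of each treatment was removed. The pairs share libraries and their totals, and the values are a description. The median Pearson r was 0.17, the 5th percentile -0.51 and the 95th 0.76, and 21.1% of pairs exceeded 0.5. Average linkage at r = 0.5 gave 44 sets, of which 21 held a single member and 6 held 5 or more members, with 134 members in those 6.

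Set 1 held 82 members, including 10 of the 20 most abundant, with a median r of 0.66 between its members. In CON synovium, which had no part in forming the sets, the median r was 0.37. Their summed level ran from 16944 to 32617 CPM with a median of 23882 in CON, and the medians were 15344 in ACLT, 14828 in RECON and 20018 in REPAIR. The operated libraries spanned a wide range, from 7005 to 29549 CPM, which overlapped that of CON. Of its members 3 rose, 39 fell and 40 were not called. It held 26 of the 51 members that were higher in REPAIR than in RECON at an unadjusted p under 0.05. Of the smaller sets, 3 of 18 members of set 2, 6 of 8 of set 4 and 5 of 7 of set 5 were among the 51. Sets 3 and 6 had 0.

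In set 2, which includes rank 1 and ENSSSCT00000062204.3, all 18 members fell against CON, with a median log2 change of -0.85 and a range from -1.69 to -0.41. Their median pair r was 0.56 in operated synovium, with REPAIR 7 included, and 0.63 in CON synovium, with CON 11 included. No r was taken without these libraries, which stood apart in the level of this set. The summed level was 6761 CPM in the median CON library (3008 to 8555), 3489 in ACLT (2297 to 4636), 2803 in RECON (2034 to 3937) and 3130 in REPAIR (2145 to 6808). The lowest CON value was that of CON 11 and the highest operated value that of REPAIR 7. Without both, the 34 operated libraries (2034 to 4849) lay below the 11 CON libraries (6000 to 8555).

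Set 6 went the other way, and all 5 of its members rose, by a median of 0.88. They are ranks 2, 7, 106, 165 and 187. The summed level was 3740 CPM in the median CON synovium (2466 to 6633), 5736 in ACLT (3957 to 10539), 6915 in RECON (4267 to 11342) and 5615 in REPAIR (2681 to 9833). Every group overlapped CON, whose highest value was that of CON 11. Without it and REPAIR 7, CON ended at 4441 CPM and 28 of the 34 operated libraries lay above. In cartilage, CON 12 held 538 CPM of these transcripts, against a CON median of 29.5, so a high cartilage value of this set was also seen in a CON knee.

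Set 3, of 14 members, had 4 that rose and none that fell, and set 4, of 8 members, had none that were called. Between the sets, the median r was -0.56 for members of set 1 with those of set 6, -0.45 for set 1 with set 3, and 0.47 for set 3 with set 6. Within the treatment groups, libraries high in set 1 thus tended to be lower in sets 3 and 6, though not in every case. The levels are parts of 1 total, so a gain in a set lowers the CPM of the others, and how far this shapes the negative values was not tested.

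**Figure D4:**
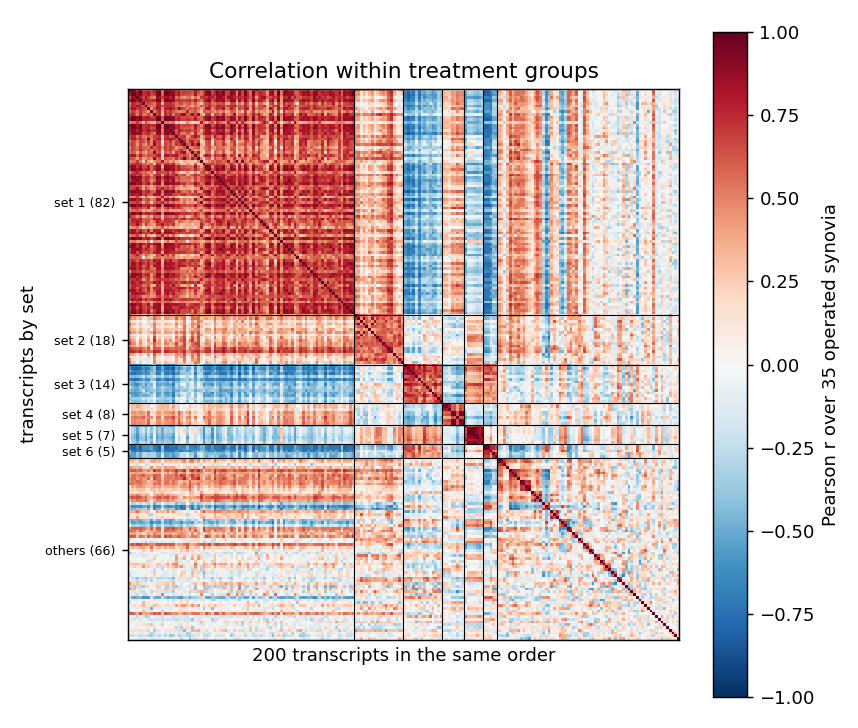
Pearson r between the 200 transcripts over 35 operated synovia, after the mean of each treatment was removed, with transcripts ordered by set and then by rank. Positive blocks on the diagonal are sets 1 to 6, and the blocks of set 1 with sets 3 and 6 are negative.

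Set 5 was high in some synovia and near 0 in others. Of its 7 members, 5 were called lower in operated knees (ranks 59, 83, 133, 138 and 192), with log2 changes from -3.99 to -2.61. Their summed level in synovium ran from 7.92 to 3654 CPM in CON with a median of 451, and from 3.49 to 4289 in operated knees with a median of 8.44. The medians were 19.4 in ACLT, 6.75 in RECON and 9.23 in REPAIR. In 8 of 12 CON synovia all 5 members were over 20 CPM, and in 2 (CON 5 and CON 11) none was. In the 35 operated synovia all 5 were over 20 CPM in 3 libraries (ACLT 7, REPAIR 5 and REPAIR 7), and none was in 30. Without CON 11 and REPAIR 7, all 5 were over 20 CPM in 8 of 11 CON and 2 of 34 operated synovia. The other 2 members, ranks 50 and 149, varied with them but were over 20 CPM in nearly every library, and neither was called.

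The same 5 transcripts were high in a single cartilage library. Their summed level was 376 CPM in the cartilage of ACLT 1 and at most 13.9 in the other 46 cartilage libraries. In the synovium of that knee the sum was 9.13 CPM, so in this animal they were higher in cartilage than in synovium. The cause was not tested.

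**Figure D5:**
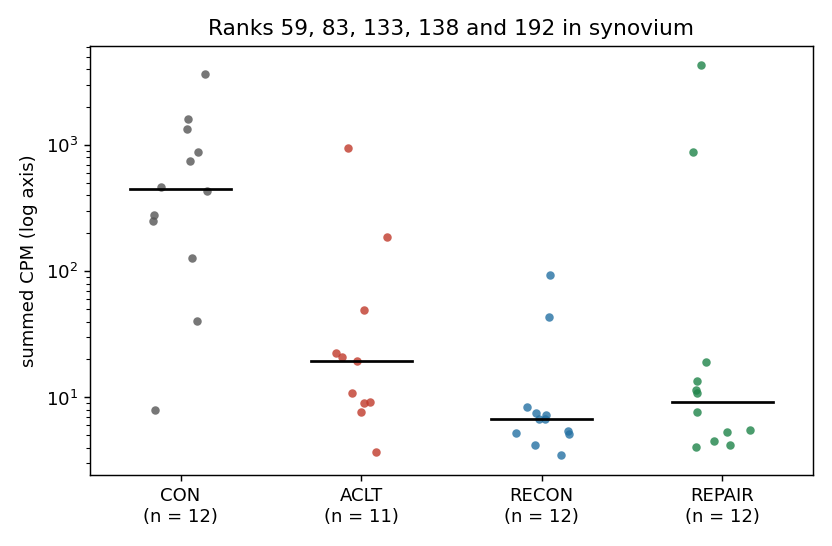
Summed CPM of the transcripts of ranks 59, 83, 133, 138 and 192 in each synovium library on a log axis, with a line at the group median. CON libraries are spread from 7.92 to 3654 CPM, and most operated libraries lie below 50 CPM, with REPAIR 5 at 4289.

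In cartilage the members made up a median of 0.107% of the CON libraries (0.0826% to 0.176%). The median was 0.163% in ACLT (0.0639% to 0.557%), 0.153% in RECON (0.0732% to 0.568%) and 0.112% in REPAIR (0.0653% to 0.700%). Operated cartilage reached lower and higher than CON, and 13 of the 35 libraries exceeded the highest CON value, 4 in ACLT, 5 in RECON and 4 in REPAIR. Low levels in CON cartilage chose the members.

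Of the 200 members, 177 had enough counts to be tested in cartilage. The called members were 4 that were higher in operated than in CON knees and 0 that were lower, where 0.233% of all transcripts tested were called and 0.119% were higher (edgeR, adjusted p-value under 0.05). At an unadjusted p under 0.05, 78 were higher and 2 lower, and 2399 of all transcripts, or 9.17%, passed. DESeq2 called 16 members higher and 1 lower, and 212 of all transcripts. The log2 change was positive for 163 of the 177, with a median of 0.90, and for 48.8% of all transcripts. The median standard error was 0.56. The count of higher members was 33 when both tissues were fitted together, 1 with RNA integrity as a covariate, and 0 with the animal as a block in the 12 animals with both knees. For these fits the share of all transcripts called is not given.

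The members called in cartilage were ranks 40, 69, 103 and 121. Rank 69, of 540 bases, ran from 3.75 to 21.8 CPM with a median of 8.77 in CON and from 6.16 to 92.2 with a median of 24.4 in operated cartilage, and it also rose in synovium by 0.66 ± 0.18 (SE, edgeR adjusted p = 0.00660). Rank 121 ran from 0.0730 to 4.78 CPM with a median of 1.36 in CON and from 0.875 to 28.7 with a median of 5.44 in operated cartilage. Rank 40 was at 0 in the median CON cartilage library and at most at 0.201 CPM, and it had a median of 0.701 and a highest value of 20.8 in operated cartilage, while it fell in synovium by 1.07 on the log2 scale. Its fitted change in cartilage rests on a CON group near 0 and is not given.

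The highest shares were those of the cartilage of 4 knees, at 0.700% in REPAIR 7, 0.568% in RECON 7, 0.557% in ACLT 9 and 0.512% in ACLT 4. In these libraries 159, 148, 163 and 145 of the 200 members exceeded 2 times their CON cartilage mean (with 1 CPM added to both), where 5.73%, 6.92%, 4.99% and 6.32% of all transcripts tested did. In the CON cartilage libraries themselves the count was 1 to 37 members, with a median of 4. The libraries were singled out for their shares and low CON levels chose the members, so these counts are a description. Transcripts chosen by the opposite rule, 162 restricted to cartilage in CON knees, made up 18.2%, 20.3%, 20.5% and 25.0% of the same libraries, against 21.0% to 38.9% in CON cartilage. Their part in the rise of the members was not tested.

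Each member's cartilage level was also set against the synovium of its own knee. The median member was at 0.874% of its synovium CPM in the median CON knee (0.487% to 1.91%). The values were 2.69% in ACLT (0.352% to 11.3%), 2.75% in RECON (0.461% to 11.12%) and 1.21% in REPAIR (0.328% to 9.56%). The 4 libraries above were at 9.56%, 11.12%, 11.3% and 8.36%. Without them, 2 members were called higher in operated than in CON cartilage and the median log2 change was 0.46.

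Levels of the members moved together more closely in operated cartilage than in synovium, with a median pair r of 0.59 against 0.17 over 35 libraries each. The cartilage libraries with the highest shares, named above, are included. No r was taken without them or over other transcripts, so the value is a description. Many cartilage values were low, and 80 members had a median under 1 CPM in CON cartilage and 73 in operated cartilage.

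Between the operated groups, no member and no other transcript was called in cartilage (edgeR, 0.00% of 26159 transcripts in each comparison). At an unadjusted p under 0.05 there were 14 members and 731 transcripts for RECON against ACLT, 4 and 1330 for REPAIR against ACLT, and 11 and 1828 for REPAIR against RECON. DESeq2 called no member and 4, 8 and 33 transcripts. Median differences of the members were -0.30, -0.35 and -0.08 on the log2 scale, with standard errors near 0.66, 0.66 and 0.65 for the median member.

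The difference between the tissues was smaller in operated than in CON knees for 67 members and larger for 1 member (edgeR, adjusted p-value under 0.05), where 8.38% of all transcripts tested were called, 4.11% with a lower and 4.27% with a higher value of synovium minus cartilage. Members are higher in synovium, so a lower value is a smaller difference for them, which it is not for transcripts higher in cartilage. The CON side of this comparison chose the members, and nothing is read from the counts. The median log2 change in the difference was -1.29 over the members and -0.03 over all transcripts. With the knee as a replicate block 30 members had a smaller difference, and without the 4 cartilage libraries named above 39 had. The share of all transcripts called is not given for either fit. Without CON 11 and REPAIR 7 in synovium, 71 had a smaller and 1 a larger difference, where 12.1% of all transcripts tested were called.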

How the data were processed

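The authors quantified reads with Salmon 1.8.0 against Sscrofa11.1, per the labels, and deposited, for each library, an estimated count for each of 46295 transcripts without normalization, with TPM values and lengths. Salmon divides reads among similar transcripts, so transcripts of a gene or of paralogs share that uncertainty. Members and lists were chosen with earlier results of these data known. The design allowed identifiers to be printed for the 2 members that rose and the 2 that fell with the smallest adjusted p-values in synovium, and other members appear by rank. Ranks 40, 59, 69, 83, 121, 133, 138 and 192 and the sets were singled out after their values were seen.

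Rounded counts went into edgeR 4.0.16 under R 4.3.3, with low counts removed by filterByExpr at a minimum of 10, TMM factors and the quasi-likelihood F-test, within each tissue for comparisons of treatments and over 8 groups of tissue and treatment for comparisons of tissues, with Benjamini-Hochberg adjustment over all transcripts tested and a threshold of 0.05. Of the members, 200 were tested in synovium and 177 in cartilage. The study's RUVSeq adjustment was not applied. Replicates were separate knees. No pair of libraries of a group agreed within sampling noise, with a lowest chi-square per degree of freedom of 20.7 over 506 pairs.

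Cartilage and synovium libraries of the same number came from the same knee according to the study's sample list, so the numbers pair the samples, and deviations from group means correlated by 0.0535 on average (-0.0291 to 0.157, 47 knees). The list also gives 12 animals with a CON and an operated knee. Alternatives were DESeq2 1.42.0, its size factors in edgeR, another filter, all 96 libraries, shorter or stricter member lists, RNA integrity as a covariate, replicate blocks and, added after seeing the data, the removal of 4 cartilage libraries or of 2 synovium libraries. The sets of correlated members were formed with all 35 operated synovia. On simulated synovium counts, 61 of 100 transcripts changed by 1 on the log2 scale and 72 of 100 changed by 2 were recovered for operated against CON, with 8 unchanged transcripts called among 26300 tested. For cartilage, 62 and 83 of 100 were recovered, with 14 called among 24801. The changed transcripts were drawn at random from all that passed the filter, and counts were independent between transcripts. These rates are therefore not those of the members.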

Additional observations from a re-analysis of the deposited data

Results flagged for a closer look

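The difference between synovium and cartilage was itself compared between operated and CON knees in 1 fit of both tissues. It was smaller in operated knees for 67 members and larger for 1 member (edgeR quasi-likelihood test of the interaction, adjusted p-value under 0.05), where 8.38% of all transcripts tested were called, 4.11% with a lower and 4.27% with a higher value of synovium minus cartilage. With the knee as a replicate block 30 members had a smaller difference, and the share of all transcripts called is not given for that fit. The CON side of this comparison is the one that chose the members, so the counts describe them and nothing is drawn from them. Without the 4 cartilage libraries of knees ACLT 4, ACLT 9, RECON 7 and REPAIR 7 the median was -0.77. The member with a larger difference was rank 52, chosen after its values were seen. It was at 347 CPM in the median CON synovium and 390 in the median operated synovium, and at 18.8 CPM in the median CON cartilage and 10.8 in the median operated cartilage, with overlapping ranges in both tissues.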

How the results depend on the processing

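In operated synovium against operated cartilage, 199 or 200 of 200 members were called under the alternatives run on the same list, and all 100 of the 100 most abundant. No value reversed under any alternative run. Leaving out CON 11 and REPAIR 7 in synovium, chosen after seeing the data, moved no count by over 1.5 times. With all 94 libraries of both tissues in 1 fit, members called against CON in synovium numbered 4 higher and 26 lower, those higher in operated cartilage numbered 33, and those called between RECON and ACLT, REPAIR and ACLT and REPAIR and RECON cartilage numbered 3, 3 and 2. In that fit ENSSSCT00000004480.5 had a log2 change of 1.01 and an adjusted p of 0.0831. DESeq2 called 2 members for REPAIR against RECON synovium, 16 higher and 1 lower in operated cartilage, and 2 with a larger tissue difference. Members higher in operated cartilage numbered 1 with RNA integrity as a covariate, 0 with the animal as a replicate block, 2 without the 4 cartilage libraries and 2 with the list at a ratio of -5 or less, of which 129 transcripts are shared with the list described. Members with a larger tissue difference numbered 1 among the 100 most abundant and 0 with the stricter list. Those with a smaller difference numbered 39 without the 4 cartilage libraries and 30 with the knee as a replicate block. The blocks moved no other count by over 1.5 times, but the animal block took the median log2 change in synovium to -0.59. That median was -0.28 with RNA integrity as a covariate. The causes of these differences were not tested. No share of all transcripts called is given for the fit of 94 libraries, the RNA integrity covariate, the blocks, the removal of 4 cartilage libraries or the DESeq2 tissue difference. Member counts from these fits are a description of the members only. Estimated counts carry an uncertainty between similar transcripts that was not measured here.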
